A study of Sus scrofa with 12 samples.

Results

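The miRNAs described here carry names of the imprinted DLK1-DIO3 region, or of miR-345, which lies beside it. They were chosen by name, from 19 miRNA names in any arm. The table of uterine small RNA holds 8 rows with 5 of these names, of 420 rows in all, and the other 14 names have no row in it. A row was kept where its value lay above the table's floor of 1 in at least 4 of the 12 libraries, which 7 rows did: ssc-miR-127, ssc-miR-136, ssc-miR-432-5p, ssc-miR-493-5p, ssc-miR-493-3p, ssc-miR-345-3p and ssc-miR-345-5p, where ssc stands for the pig and is left out below. The remaining row, miR-432-3p, was at the floor in all 12 libraries. Of the 420 rows 268 met the same filter and were tested.

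The uteri came from neonatal gilts, young female pigs of crossbred Landrace, Yorkshire, Duroc and Hampshire origin, with 4 animals per group. PND0 gilts had not nursed and were euthanized within 1 h of birth. PND2N gilts nursed freely and PND2R gilts received a commercial milk replacer, each for 48 h, and both were euthanized at 50 h of age. Each library represents uterine tissue of 1 animal with its cell types mixed, so that fewer cells of a type and less RNA per cell cannot be told apart. PND2N against PND2R compares nursing with replacer at the same age, while each PND2 group differs from PND0 in both age and feeding. PND0 serves both comparisons with newborns, so those comparisons are not independent of each other.

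The DLK1-DIO3 region is an imprinted stretch of mammalian chromosomes in which the parental copies are used differently. The paternal copy gives the protein genes DLK1, RTL1 and DIO3, and the maternal copy gives MEG3 and other noncoding RNAs together with a large set of miRNAs. In mouse, miR-127 and miR-136 are made from the strand opposite to RTL1 and pair with its transcript, which is then cut. In mouse and sheep the region is known for its part in fetal growth, placenta and muscle.

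The RefSeq gene order of another pig assembly, Sscrofa11.1, was used to check the names. In it MIR493 follows MEG3, and MIR127, MIR432 and MIR136 lie within the span of RTL1. MIR345 lies outside the region as these genes bound it: it stands between SLC25A29 and SLC25A47, with 6 listed genes between it and DLK1, BEGAIN the last of them. The 5 rows of miR-127, miR-136, miR-432 and miR-493 are therefore called the cluster miRNAs below, and the miR-345 arms are described beside them. RefSeq has an entry for 8 of the 19 names, of which 3 (MIR376A, MIR376C and MIR381) lie on sequence with no chromosome and have no row in the expression table.

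Levels are given in rpm, the row's recovered reads per 1000000 recovered miRNA reads of its library. That total sums all 420 rows, which carry 362 names, and reads of a miRNA with several rows can count in it more than once. Depth ran from 37462 to 12159233 reads, so 1 read stands for 26.7 rpm in the shallowest library and for 0.0822 rpm in the deepest. The 4 libraries under 100000 reads were PND2N replicate 2 and PND2R replicates 1, 2 and 3. The other 8 held over 200000. Depth and group therefore overlap, and PND2R has only replicate 4 among the deep libraries. Smooth muscle miRNAs (miR-143 and miR-145, 4 of 4 rows detected) took 94917 to 177831 rpm in PND0, 163532 to 291202 rpm in PND2N and 180983 to 209535 rpm in PND2R. The endothelial miR-126 (2 of 2 rows) summed to 12217 to 15349 rpm in PND0, 10398 to 13972 rpm in PND2N and 9711 to 11944 rpm in PND2R. Rows of epithelial (2 of 2 detected), red cell (3 of 3), leukocyte (4 of 5, miR-155-3p at 0), striated muscle (7 of 7) and neuronal (5 of 5) miRNAs were found as well. These fractions count only rows present in the table. In it 4 of the 6 epithelial names, 1 of the 4 leukocyte names and 1 of the 3 neuronal names had no row. The epithelial rows are of miR-429 and miR-205, and the neuronal rows of miR-9 and miR-128 only. The part of these cell types in the levels below was not tested.

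Among the 5 cluster rows, and with no level known for names without a row, miR-127 was the most abundant in the neonatal uterus. It averaged 581 ± 306 rpm (SD, n = 12), which placed it at rank 91 of the 268 tested rows, and it was the only one of the 7 rows above the floor in every library. Its nearest neighbours by mean level were miR-28-5p (608 rpm) and miR-221-3p (601 rpm) above it and miR-126-5p (574 rpm) and miR-532-5p (557 rpm) below it. These 5 means differed by less than the spread of each between libraries, the smallest of which was 83.7 rpm. Levels of different miRNAs also carry the unequal ligation of their ends in small RNA libraries.

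In PND0 replicates 1 to 4 miR-127 stood at 665.3, 442, 242 and 659.8 rpm. In PND2N it stood at 315, 1441, 585 and 392 rpm, and in PND2R at 682, 616, 500.1 and 436 rpm. All 3 groups overlapped, and the highest value came from PND2N replicate 2, the shallowest library. That value rests on 54 reads, with an exact Poisson 95% interval of 1083 to 1881 rpm that covers counting error only. The interval lies above the values of the other 11 libraries, so counting error at this depth does not span the gap.

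**Figure D1:**
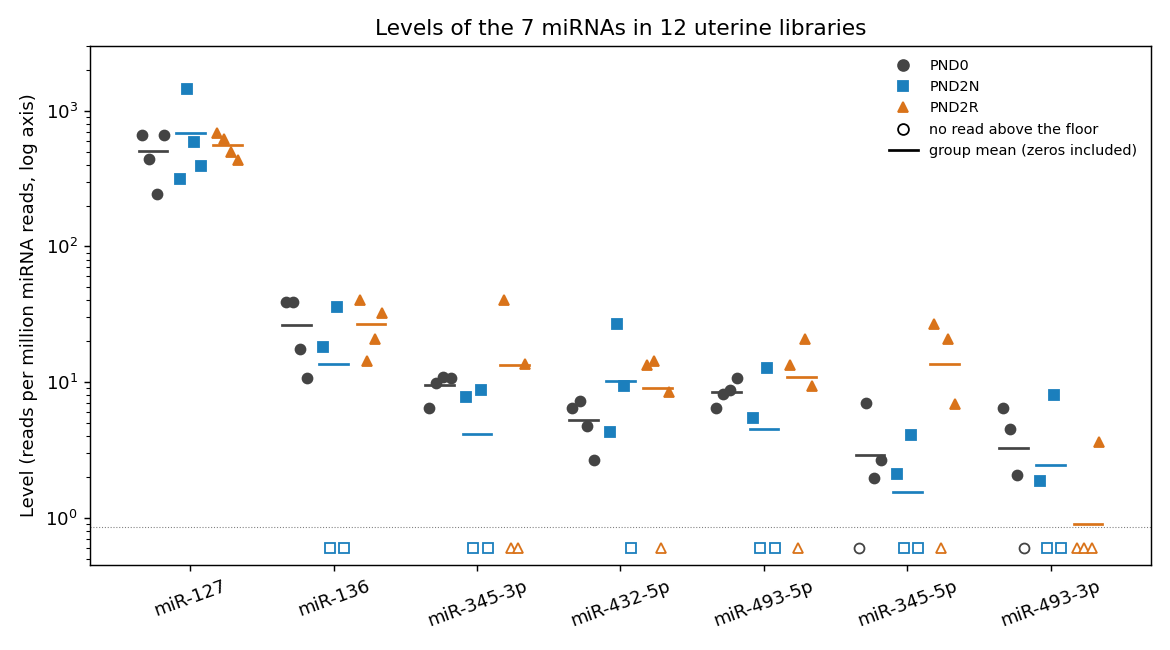
Level of each of the 7 miRNAs in each library (points, rpm, log axis), by group, with group means as lines; open symbols under the dotted line are libraries with no read above the floor. miR-127 lies between 242 and 1441 rpm in all 12 libraries. Each of the other 6 has at least 2 libraries with no read above the floor.

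Group means of miR-127 were 502 ± 202 rpm in PND0, 683 ± 518 rpm in PND2N and 559 ± 111 rpm in PND2R (SD, n = 4 each). The log2 fold change of PND2N against PND0 was 0.28 ± 0.42 (SE), with a 95% interval of -0.62 to 1.19 (limma, adjusted p = 0.822). For PND2R against PND0 it was 0.23 ± 0.42 (interval -0.67 to 1.14, limma adjusted p = 0.882), and for PND2N against PND2R 0.05 ± 0.42 (interval -0.86 to 0.96, limma adjusted p = 0.951). Here and below, fold changes are of level + 10 rpm, which understates those of low miRNAs, and p-values are adjusted over all 268 rows. No direction can be given for miR-127: without PND2N replicate 2 the PND2N mean was 430.8 ± 139 rpm (n = 3), and the fold changes became -0.16 against PND0 and -0.39 against PND2R. Leaving out PND0 replicate 3, the lowest library, also turned the sign against PND0, to -0.024 for PND2N and -0.073 for PND2R.

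miR-127 had a lower median in the deeper libraries, with overlapping ranges, and its relation to depth was not tested. In the 5 libraries over 1000000 reads it lay between 242 and 585 rpm, with a median of 436 rpm, and in the 7 shallower ones between 392 and 1441 rpm, with a median of 659.8 rpm. Depth and group cannot be fully told apart here. Among libraries over 200000 reads the means were 502 ± 202 rpm in PND0 (n = 4) and 430.8 ± 139 rpm in PND2N (n = 3), and PND2R replicate 4 had 436 rpm. The spread within groups was larger than counting error in the deep libraries: PND0 replicates 2 and 3 had intervals of 421 to 465 rpm and 233 to 251 rpm.

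**Figure D2:**
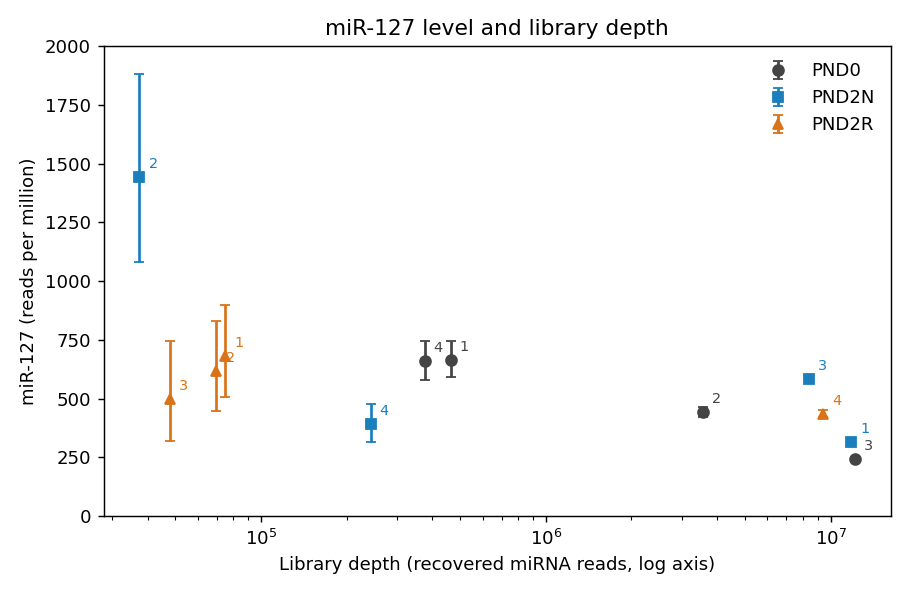
miR-127 level in rpm against library depth (log axis), with exact Poisson 95% intervals as bars and replicate numbers beside the points. The 4 deepest libraries lie between 242 and 585 rpm, and the shallowest, PND2N replicate 2, lies at 1441 rpm with the widest interval.

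miR-136, which like miR-127 lies opposite RTL1, was the next most abundant at 22.3 ± 14.7 rpm (n = 12), rank 188 of 268. Its neighbours by level were miR-1306-3p and miR-30c-3p above and miR-505 and miR-551a below, with means from 20.9 to 22.7 rpm, all closer to it than its own spread. In PND0 it stood at 38.8, 38.7, 17.5 and 10.6 rpm in replicates 1 to 4. In PND2N it had 18.0 and 35.9 rpm in replicates 1 and 3 and no read above the floor in replicates 2 and 4. In PND2R it stood at 40.1, 14.3, 20.8 and 32.2 rpm. The 2 PND2N libraries with no read above the floor are the shallowest of that group, and the groups overlapped.

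A count of 0 says little in PND2N replicate 2, where 3 reads are worth 80.1 rpm. In PND2N replicate 4 the exact Poisson 95% interval for no read of miR-136 reached 15.2 rpm. The floor can hide 1 more read there, worth 4.12 rpm. For miR-136 the log2 fold change was -0.85 ± 0.49 (SE) for PND2N against PND0 (interval -1.90 to 0.21, limma adjusted p = 0.653) and -0.91 ± 0.49 for PND2N against PND2R (interval -1.96 to 0.15, limma adjusted p = 0.452). With all reads of a group pooled, the levels of miR-136 were 22.5 rpm in PND0, 25.1 rpm in PND2N and 32.1 rpm in PND2R. Pooled levels, here and below, weight libraries by depth: 303 of the 308 PND2R reads of miR-136 came from replicate 4, 213 of the 373 PND0 reads from replicate 3, and all 515 PND2N reads from replicates 1 and 3. The size of the difference also depended on the method. For PND2N against PND0 the log2 fold change was -2.23 with 1 rpm added in place of 10 (limma adjusted p = 0.616), -0.29 with 50 rpm added (0.641), -0.20 by edgeR (0.989) and -0.47 by DESeq2 (0.999). For PND2N against PND2R it was -2.34 with 1 rpm added (limma adjusted p = 0.457), -0.30 with 50 rpm added (0.546), -0.38 by edgeR (0.928) and -0.58 by DESeq2 (0.991). PND2R against PND0 gave 0.06 ± 0.49 (limma adjusted p = 0.996).

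Most reads of the 5 cluster rows were of miR-127. In the 5 libraries over 1000000 reads, miR-127 held 88.3% of them in PND0 replicate 2 and 88.0% in PND0 replicate 3. It held 91.4% and 89.9% in PND2N replicates 1 and 3 and 89.1% in PND2R replicate 4. These shares differed by more than counting error, as the exact Clopper-Pearson 95% interval was 86.8% to 89.0% in PND0 replicate 3 and 90.5% to 92.3% in PND2N replicate 1. In the 7 shallower libraries miR-127 held 91.1% to 100% of the cluster reads above the floor, and the rarer members were often not seen. PND2N replicate 4 had 95 reads of miR-127 and no other cluster row above the floor, which can hide 1 read per row there. miR-136 made up 8.05% of the reads of miR-136 and miR-127 in PND0 replicate 2 (interval 6.81% to 9.44%) and 5.41% in PND2N replicate 1 (interval 4.72% to 6.16%), the extremes of the 5 deep libraries. PND0 replicate 4 had 1.59% (4 of 252 reads, interval 0.434% to 4.01%), below all 5.

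Summed over its 5 rows, the cluster took 0.0275% to 0.0723% of miRNA reads in PND0, 0.0345% to 0.147% in PND2N and 0.0490% to 0.0749% in PND2R. The ranges overlapped. As miR-127 held most of the sum, the sum followed miR-127 from library to library.

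miR-432-5p, from a hairpin that also lies opposite RTL1, averaged 8.14 ± 7.41 rpm. It stood at 6.46, 7.30, 4.77 and 2.66 rpm in PND0, and in the deep PND2N replicates 1 and 3 at 4.32 and 9.40 rpm. PND2R replicate 4 had 8.41 rpm. Every other PND2 library held at most 1 read, which gave 26.7 rpm in PND2N replicate 2 and 13.4 and 14.3 rpm in PND2R replicates 1 and 2. The PND2N mean of 10.1 ± 11.7 rpm therefore rests largely on the 1 read of replicate 2, while the PND2R mean was 9.03 ± 6.55 rpm, beside 8.41 rpm from 79 reads in replicate 4. With the reads of each group pooled the levels were 5.31, 6.39 and 8.45 rpm in PND0, PND2N and PND2R. The log2 fold change was 0.23 ± 0.38 (SE) for PND2N against PND0, 0.24 ± 0.38 for PND2R against PND0 and -0.01 ± 0.38 for PND2N against PND2R (limma adjusted p from 0.822 to 0.985). Without PND2N replicate 2 the difference of PND2N from PND0 turned to -0.11. Its other arm, miR-432-3p, had no value above the floor, which can hide up to 12 reads in the deepest libraries.

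miR-493 was read from both arms. In human tumour cells it has been described as a suppressor of metastasis. miR-493-5p averaged 7.97 ± 6.22 rpm and lay within 6.46 to 10.6 rpm in the 4 PND0 libraries. It stood at 5.42 and 12.6 rpm in PND2N replicates 1 and 3 with replicates 2 and 4 at the floor, and at 13.4, 20.8 and 9.37 rpm in PND2R replicates 1, 3 and 4 with replicate 2 at the floor. Pooled by group, its levels were 8.63, 8.30 and 9.39 rpm in PND0, PND2N and PND2R. miR-493-3p, the rarest row, was above the floor in 6 libraries, at 2.06 to 6.46 rpm in 3 PND0 libraries, 1.86 and 7.98 rpm in PND2N replicates 1 and 3, and 3.62 rpm in PND2R replicate 4.

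Neither arm of miR-493 passed in any comparison. For miR-493-5p the log2 fold change was -0.43 ± 0.35 (SE) for PND2N against PND0, 0.07 ± 0.35 for PND2R against PND0 and -0.50 ± 0.35 for PND2N against PND2R (limma adjusted p from 0.562 to 0.970). For miR-493-3p the values were -0.11, -0.27 and 0.16, each ± 0.24 (limma adjusted p from 0.814 to 0.883), and 6 of its 12 values were at the floor.

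miR-345, studied mostly in human cancers, was read mainly from its 3p arm. miR-345-3p averaged 9.02 ± 10.99 rpm and miR-345-5p 6.03 ± 8.75 rpm over 12 libraries. However, 4 libraries of each had no read above the floor. Over all libraries 472 reads came from the 3p and 177 from the 5p arm, so that the 3p arm held 72.7% of the pooled reads. The exact 95% interval of 69.1% to 76.1% covers counting error only and not the differences between animals. The arm shares differed between animals of 1 group by more than counting error. The 3p arm held 84.7% in PND0 replicate 3 (interval 78.1% to 90.0%) and 58.3% in PND0 replicate 2 (interval 44.9% to 70.9%), and these intervals do not overlap.

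In the deep PND2 libraries the 3p share of miR-345 was 78.6% and 68.5% in PND2N replicates 1 and 3 and 66.3% in PND2R replicate 4. For miR-493 the 5p arm led, with 70.7% of 570 reads pooled over all libraries (interval 66.8% to 74.4%, counting error only). Its share was 81.1% in PND0 replicate 3 (interval 73.3% to 87.4%) and 61.3% in PND2N replicate 3 (interval 53.6% to 68.6%), again without overlap. Among the 5 deep libraries both shares were highest in PND0 replicate 3, the deepest, in which the floor hides up to 12 reads of any row. All arm counts there lay above that limit.

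**Figure D3:**
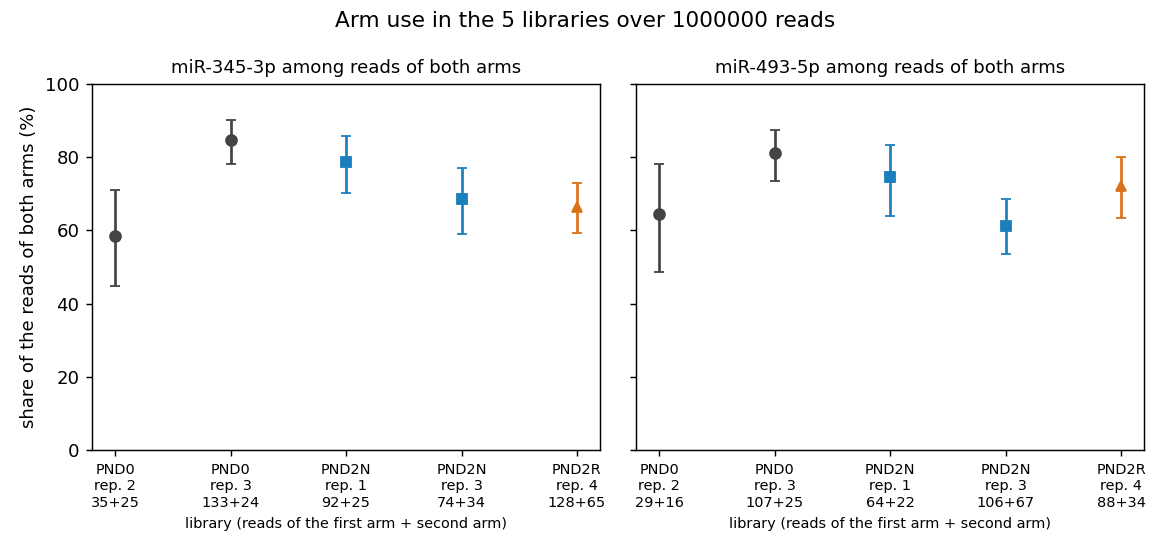
Share of the leading arm among the reads of both arms of miR-345 (left) and miR-493 (right) in the 5 libraries over 1000000 reads, in percent, with exact 95% binomial intervals; the read counts of the arms stand under each library. PND0 replicate 3 has the highest share in both panels, at 84.7% and 81.1%.

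miR-345-3p stood at 6.46, 9.83, 10.9 and 10.6 rpm in PND0, and at 7.79 and 8.81 rpm in PND2N replicates 1 and 3. In PND2R it stood at 40.1 rpm in replicate 1, from 3 reads, and 13.6 rpm in replicate 4. The other 4 PND2 libraries had no read above the floor. Pooled levels were 10.6 rpm in PND0, 8.10 rpm in PND2N and 13.7 rpm in PND2R. The log2 fold change was -0.52 ± 0.44 (SE) for PND2N against PND0, -0.06 ± 0.44 for PND2R against PND0 and -0.46 ± 0.44 for PND2N against PND2R (limma adjusted p from 0.668 to 0.980).

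miR-345-5p had the smallest unadjusted p of the 7 rows, between nursed and replacer-fed gilts. In PND2N it stood at 2.12 and 4.05 rpm in replicates 1 and 3, with replicates 2 and 4 at the floor. In PND2R it stood at 26.7, 20.8 and 6.92 rpm in replicates 1, 3 and 4, with replicate 2 at the floor. The groups overlapped, and PND2N was above PND2R in 2 of 16 pairs of libraries, with 2 tied. The log2 fold change was -0.87 ± 0.35 (SE) with a 95% interval of -1.63 to -0.12, and it did not pass over all rows (limma, unadjusted p = 0.0264, adjusted p = 0.337). Its size depended on the method: it was -2.06 with 1 rpm added in place of 10 (limma adjusted p = 0.457), -0.28 with 50 rpm added (0.280), -1.52 by edgeR (0.614) and -2.03 by DESeq2 (0.877).

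The PND2R values of miR-345-5p in replicates 1 and 3 are 2 reads and 1 read. Without replicate 1 the log2 fold change was -0.60 (limma, unadjusted p = 0.0908), and without replicate 3 it was -0.69 (0.0794). Without replicate 2, which had no read, it was -1.23 (limma, unadjusted p = 0.00109, adjusted p = 0.292). Without the 4 libraries under 100000 reads it was -0.50 (0.145). A two-sided exact permutation test of the level gave p = 0.143 (4 against 4 libraries). In PND0 miR-345-5p had no read above the floor in replicate 1 and stood at 7.02, 1.97 and 2.66 rpm in replicates 2 to 4, so that PND0 replicate 2 lay as high as the deep PND2R library. Against PND0, the log2 fold change was 0.72 ± 0.35 for PND2R (limma adjusted p = 0.467) and -0.15 ± 0.35 for PND2N (adjusted p = 0.898).

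Over the 7 rows, limma called 0 in each of the 3 comparisons, with 0% of the 268 tested rows called in each. At an unadjusted p under 0.05 it had 0 of the 7 for PND2N against PND0, 0 for PND2R against PND0 and 1 for PND2N against PND2R, beside 22, 29 and 35 of all 268. On recovered reads edgeR and DESeq2 likewise called 0 of the 7, and each called 0% of the 268 in every comparison. At an unadjusted p under 0.05 both had 0 of the 7, where edgeR had 17, 28 and 20 of all rows and DESeq2 15, 18 and 18, in the same order of comparisons. The groups overlapped for every one of the 7 in every comparison, 21 in all, while the groups did not overlap for 3.73% of all tested rows for PND2N against PND0, 7.46% for PND2R against PND0 and 5.97% for PND2N against PND2R. The smallest of the 21 exact permutation p-values was 0.114, where 0.0286 is the smallest that 4 against 4 libraries can give.

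The median log2 fold change of the 7 was -0.15 for PND2N against PND0, where that of all 268 rows was -0.20. For PND2R against PND0 it was 0.07, beside -0.08 over all rows, and for PND2N against PND2R it was -0.46, beside -0.15. The median of the 7 was the value of miR-345-5p for PND2N against PND0 and of miR-345-3p for PND2N against PND2R. Both arms lie outside the cluster. For PND2N against PND2R the 5 cluster rows lay on both sides of the median of all rows. These were 0.05 for miR-127, -0.91 for miR-136, -0.01 for miR-432-5p, -0.50 for miR-493-5p and 0.16 for miR-493-3p. Of the 7, 5 lay below 0 for PND2N against PND0, 2 for PND2R against PND0 and 5 for PND2N against PND2R. For PND2N against PND0 the upper quartile of all 268 rows was -0.012, so most of all rows lay below 0 there. Their quartiles were -0.32 and 0.17 for PND2R against PND0 and -0.39 and 0.15 for PND2N against PND2R. Without the 4 shallow libraries the counts of the 7 below 0 were 7, 1 and 7, with PND2R reduced to replicate 4. The medians of all rows were then -0.093, 0.032 and -0.11. The standard errors of the 6 rarer rows depended on the rpm added before taking logs. They were 0.24 to 0.49 with 10 rpm, 0.93 to 1.23 with 1 rpm and 0.064 to 0.19 with 50 rpm, where that of miR-127 was 0.42, 0.43 and 0.40. The intervals of these rows are therefore those of the stated scale and set no limit on changes in the level itself.

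**Figure D4:**
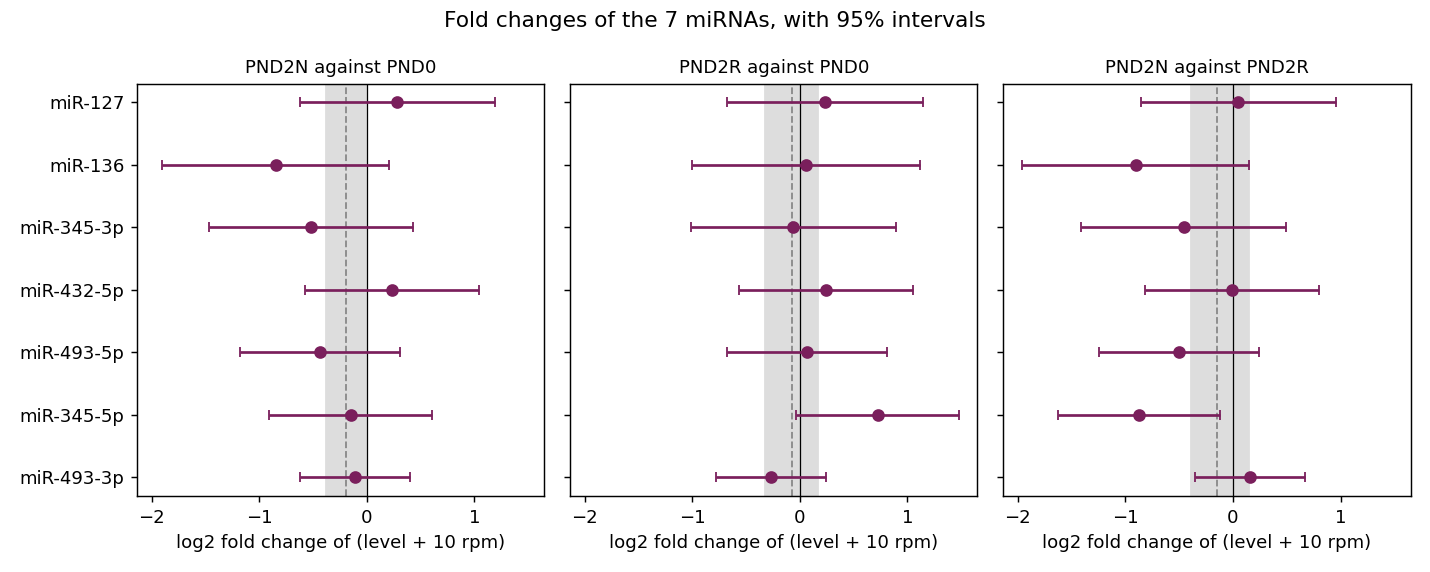
Log2 fold change of level + 10 rpm for the 7 miRNAs in the 3 comparisons (points), with 95% intervals as bars; the grey band holds the middle of all 268 rows between their quartiles and the dashed line is their median. All intervals cross 0 except that of miR-345-5p for PND2N against PND2R, which did not pass after adjustment.

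Of a fixed list of 30 other miRNA names for the DLK1-DIO3 region, among them miR-134, miR-154, miR-379, miR-410 and miR-433, 0 had a row in the table. A name without a row has no level here, which does not show that the miRNA is absent from the uterus. Of 5 names from other imprinted loci, 2 were present, with 3 rows. miR-335, from an intron of the paternally used gene MEST, stood at 77.8 ± 9.38 rpm in PND0, 70.5 ± 31.3 rpm in PND2N and 44.8 ± 17.0 rpm in PND2R (SD, n = 4). miR-296-3p, from the imprinted GNAS locus, stood at 119 ± 51.9, 109.8 ± 20.3 and 105 ± 16.01 rpm, and its other arm miR-296-5p at 41.5 ± 23.8, 19.7 ± 13.5 and 49.9 ± 25.96 rpm. None passed (limma adjusted p from 0.366 to 0.970). miR-127 lay above all 3 rows in each of the 12 libraries, and miR-136 lay below miR-296-3p in each of them.

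By profile over the 12 libraries, the rows most like miR-127 were miR-143-3p, miR-24-2-5p, miR-101, miR-30a-3p and miR-1306-3p. Likeness is the root mean square difference of log2(level + 10 rpm) after centring each row on its own mean, and it was 0.402 to 0.482 for these 5, beside a median of 0.821 over all tested rows outside the 7. The rows most like miR-136 were miR-32, miR-374a-5p, miR-148b-3p and both rows of miR-19b, at 0.356 to 0.488 beside a median of 0.782. All libraries share the depth differences above, and miR-127 itself varied by 0.612 on this scale and miR-136 by 0.791.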

How the data were processed

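Small RNA libraries of 12 uteri, 4 per group by the feeding label, were analysed; replicates were numbered in accession order and pair no samples. Per the labels' protocols, 500 ng of total RNA per animal entered a ligation-based kit with 6 PCR cycles and was read as 50 bp single ends. The submitters' processing notes name Sscrofa 10.2 and FastQC. No source used here names the aligner, counter or normalization. The authors deposited a normalized signal per miRNA row; from the values, it is a read count divided by 1 factor per library, with values under 1 raised to 1. Dividing by each library's step gave whole reads within 0.1 read for at least 95.9% of values above the floor in every library, and for 100% of those up to 1000 reads. Values at the floor entered as 0 reads. Replicates differed beyond sampling noise (chi-square per degree of freedom 2.98 to 1093 over 18 pairs).

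The test was limma 3.58.1 (trend, R 4.3.3) on log2(rpm + 10), 3 groups in 1 fit, two-sided, Benjamini-Hochberg adjusted, threshold 0.05, on rows with 4 or more libraries above the floor. edgeR 4.0.16 (TMM, quasi-likelihood) and DESeq2 1.42.0 on recovered reads were alternatives; scripts were tested on simulated data. The members and lists were chosen with earlier results of these data known. Text names all members, the fixed lists, the 5 rows most like the 2 most abundant members, and their 2 neighbours by level on each side. Counting intervals do not cover PCR or ligation. Figures used matplotlib 3.10.9.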

Additional observations from a re-analysis of the deposited data

Results flagged for a closer look

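Dixon's 95% limit was tried on 21 groups of 4 libraries (7 miRNAs in 3 groups). In 1 group a library stood farther from the other 3 than the limit allows, where chance flags about 1 in 20 groups of untied values. This was miR-493-3p in PND2R, at 3.62 rpm in replicate 4 and at the floor in replicates 1 to 3. With these 3 tied, any replicate 4 value above the floor would pass the limit, so the flag says nothing about an outlier. Replicate 4 is the only PND2R library over 200000 reads. In the other 3 libraries 1 read is worth 13.4 to 20.8 rpm, above that level of 3.62 rpm.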

How the results depend on the processing

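Of 444 alternative values for the 21 member fold changes, 150 equalled the reported value, since the alternative left that row and comparison as they were. Of the other 294, 250 had the same sign and 44 the opposite one, and 0 of the 444 passed (smallest adjusted p = 0.280). On deposited values as they stand, the log2 fold change of miR-127 was -0.083 for PND2N against PND0 and -0.37 for PND2R against PND0, that of miR-136 -0.42 and of miR-493-5p -0.12 for PND2R against PND0, that of miR-493-3p 0.083 for PND2N against PND0 and that of miR-432-5p 0.18 for PND2N against PND2R; the median of all rows then moved to -0.49 and -0.58 against PND0 and 0.10 for PND2N against PND2R. By edgeR, miR-493-5p (0.0065) and miR-493-3p (0.57) turned for PND2N against PND0 and miR-345-3p (0.54) and miR-493-3p (0.083) for PND2R against PND0; by DESeq2, miR-493-3p (0.34) and miR-345-3p (0.60) did so in the same comparisons. Without the 4 shallow libraries the values were -0.16 for miR-127 and -0.11 for miR-432-5p (PND2N against PND0), -0.095 for miR-127, 0.29 for miR-345-3p and 0.065 for miR-493-3p (PND2R against PND0), and -0.064 for miR-127 and -0.081 for miR-493-3p (PND2N against PND2R). A pseudocount of 50 rpm gave 0.050 for miR-345-3p (PND2R against PND0) and 0.014 for miR-432-5p (PND2N against PND2R), and 1 rpm gave -0.31 for miR-493-5p (PND2R against PND0). The cause was not tested.

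With each library left out in turn, miR-127 ranged from -0.16 to 0.56 for PND2N against PND0, -0.073 to 0.40 for PND2R against PND0 and -0.39 to 0.33 for PND2N against PND2R. For PND2N against PND0, miR-432-5p ranged from -0.11 to 0.51 and miR-493-3p from -0.30 to 0.0048. For PND2R against PND0, miR-136 ranged from -0.18 to 0.24, miR-345-3p from -0.54 to 0.23 and miR-493-5p from -0.16 to 0.38. For PND2N against PND2R, miR-345-3p ranged from -0.75 to 0.022, miR-432-5p from -0.36 to 0.27 and miR-493-3p from -0.029 to 0.27. The count of all rows called for PND2N against PND2R ranged from 0 to 3, the 3 without PND2R replicate 4 and none of them a member. With the filter at all 12 libraries only miR-127 of the members was tested. PND2R replicate 4 alone is assumed to vary like the other groups where the shallow libraries are left out. No paired analysis was run because no label used here pairs animals across groups. Depth limits every value at the floor.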
